A study of Sus scrofa with 11 samples.

Results

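Genes of membrane traffic were measured in ischemic pig left ventricle: the TMED, ERGIC and TRAPPC genes of transport between the endoplasmic reticulum (ER) and the Golgi, the VPS and SNX genes of endosomes, and the Rab genes with their partners. A member was any probe set whose only gene symbol in the array annotation started with TMED, TRAPPC, ERGIC, VPS, SNX, or RAB followed by a digit, with 1 Rab gene left out. This gave 124 of 27558 probe sets, for 115 of the 12218 genes that a probe set with 1 symbol names: 9 TMED, 2 ERGIC, 11 TRAPPC, 23 VPS, 22 SNX and 48 RAB genes. The RAB genes were 40 Rab GTPases and 8 partner proteins whose names begin with that of a Rab (RAB11FIP1 to RAB11FIP4, RAB3GAP1, RAB3GAP2, RAB3IL1 and RAB3IP). The rule goes by names alone and uses no measured value, but it was chosen with earlier results of these data known. Names were taken as the annotation gives them. VPS72 entered by its name although its product belongs to chromatin complexes.

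All pigs were intact male Yorkshire swine carrying an ameroid constrictor, a slowly swelling ring that narrows an artery, on the left circumflex coronary artery, so every group had the ischemic injury. Feeding lasted 12 weeks, on normal diet (ND) or on high fat diet (HFD), and the hearts had either vehicle or extracellular vesicles (EV, small membrane-bound particles that cells shed) injected into the ischemic muscle, and the muscle was sampled 5 weeks later. ND is normal diet with vehicle (3 arrays), ND+EV normal diet with EV (3), HFD high fat diet with vehicle (2) and HFD+EV high fat diet with EV (3). The sources used here name neither the cells that gave the EV nor the ages of the pigs. The titles call the arrays of a group biological replicates, but no label ties an array to a named animal, so p-values measure the spread between these samples.

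Newly made membrane and secreted proteins leave the ER in COPII-coated vesicles, pass the ER-Golgi intermediate compartment (ERGIC) and enter the Golgi, while COPI-coated vesicles carry escaped proteins back. The p24 family, encoded by the TMED genes, packs cargo into these vesicles, and the TRAPP complex tethers arriving vesicles and activates the Rab GTPase that starts fusion. In endosomes, retromer and sorting nexins return receptors to the Golgi or the surface, the ESCRT machinery buds vesicles into the endosome interior, and the HOPS and CORVET complexes tether endosomes before fusion. Rab GTPases are small molecular switches that mark each compartment and recruit its tethers and motors. In heart muscle this traffic places channels, transporters and adhesion proteins at the cell surface and feeds lysosomes.

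All values are log2 signal as deposited by the authors, and a difference of 1 on this scale is a fold of 2. Signal also depends on the probes of a set, so members are compared between arrays and their levels are not set against each other. Array medians lay between 4.36 and 4.48. Arrays 1 and 3 of ND stood somewhat apart: their mean correlations with the other arrays were 0.946 and 0.952, against 0.965 to 0.972 for the other 9, so for named differences of HFD from ND of 0.3 or more in size the value without both is given where it moved by over 1.5 times. As a rough check of the tissue, of 7 cardiomyocyte markers measured among 14 listed, 6 lay above the 99th percentile of probe sets by mean signal and PLN at 84.4. Measured red cell, neutrophil and B cell markers had mean signals of 4.51 or less. The 25% of probe sets of lowest mean signal (below 3.63) were left out of the tests, which kept 20668 probe sets, 116 of them members, for 107 genes. The members not tested were RAB8B, RAB26, RAB33A, RAB37, RAB38, SNX11, SNX31 and TMED8.

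In vehicle-injected hearts, 4 members rose in HFD against ND and none fell (limma, adjusted p under 0.05): the p24 cargo receptor TMED2, the ERGIC membrane protein ERGIC2, the TRAPP core subunit TRAPPC4 and the endosomal GTPase RAB14. Their folds lay between 2.01 and 2.68. The 4 calls are 3.45% of the member probe sets, against 0.735% over all probe sets tested (0.513% called higher). Of the 107 genes, 73 had a higher and 34 a lower mean in HFD, with a median difference of 0.18. The median was -0.02 over all probe sets and 0.04 over all genes with a symbol. Of all probe sets 47.5% were higher, and of all genes with a symbol 54.5%. The HFD and ND arrays did not overlap for 46 member probe sets that were higher (41 genes; 39.7%, against 19.4% of all) and 10 that were lower (8.62%, against 19.7%). At an unadjusted p under 0.05 there were 37 member probe sets (35 genes), or 31.9%, against 24% of all. In bulk tissue, fewer cells of a type and less RNA per cell cannot be told apart. Differences grew with signal in this comparison (r = 0.337 over 20668 probe sets, a description since they are not independent), and members had a slightly higher median signal than all probe sets tested (5.21 against 4.95). Among probe sets with a mean signal of 6.5 or more, 19 of 20 members and 75.8% of all probe sets were higher in HFD. From 5 to 6.5 it was 38 of 46 members and 57.1% of all, and under 5 it was 22 of 50 members and 32.2% of all.

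TMED2 is a p24 protein that cycles between ER and Golgi as part of a cargo receptor complex. It read 7.22, 7.90 and 7.42 on the 3 ND arrays, 8.08, 8.55 and 8.10 on ND+EV, 8.84 and 9.03 on HFD, and 8.15, 8.90 and 8.85 on HFD+EV. Every ND array was below every other array, and the ND+EV and HFD+EV arrays overlapped. HFD exceeded ND by 1.42 ± 0.26 (SE of the limma fit; 3 and 2 arrays; adjusted p = 0.0471), a fold of 2.68. Without ND arrays 1 and 3 it was 1.04.

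ERGIC2 is a membrane protein that cycles through the intermediate compartment. It read 6.05, 6.04 and 6.03 on ND, 6.64, 6.75 and 6.52 on ND+EV, 7.21 and 6.88 on HFD, and 6.73, 7.03 and 7.04 on HFD+EV. The 3 ND arrays were nearly equal and lay below all 8 others, while the HFD and HFD+EV arrays overlapped. HFD exceeded ND by 1.01 ± 0.15 (limma adjusted p = 0.0471), a fold of 2.01.

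TRAPPC4 belongs to the core of TRAPP that exchanges nucleotide on Rab GTPases. It read 5.48, 5.76 and 5.54 on ND, 5.61, 5.92 and 5.59 on ND+EV, 6.61 and 6.90 on HFD, and 6.07, 5.80 and 5.81 on HFD+EV. The 2 HFD arrays stood above the other 9, and ND+EV overlapped both ND and HFD+EV. HFD exceeded ND by 1.16 ± 0.16 (limma adjusted p = 0.0471), a fold of 2.23.

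RAB14 acts between the trans-Golgi network and early and recycling endosomes. It read 6.93, 7.76 and 7.05 on ND, 7.93, 8.07 and 8.0 on ND+EV, 8.31 and 8.56 on HFD, and 8.36, 8.42 and 8.46 on HFD+EV. ND lay below all other arrays, ND+EV lay between, and HFD and HFD+EV overlapped. The difference of HFD from ND was 1.19 ± 0.21 (limma adjusted p = 0.0471), a fold of 2.28. Without ND arrays 1 and 3 it was 0.68.

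**Figure D1:**
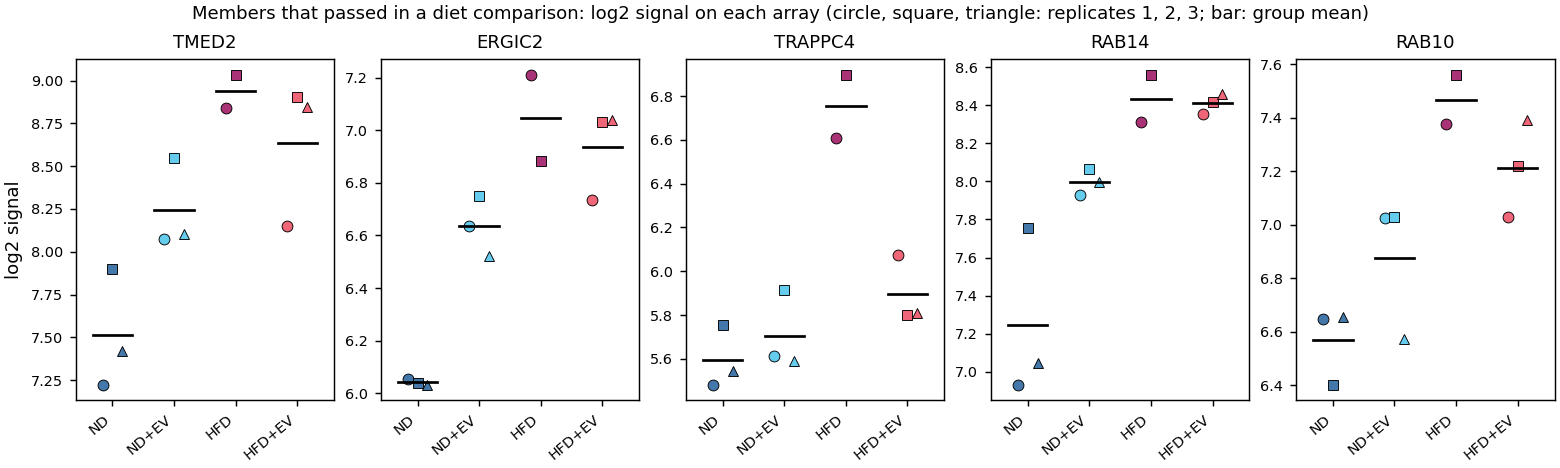
Log2 signal (vertical axis, a separate scale for each gene) of TMED2, ERGIC2, TRAPPC4, RAB14 and RAB10 on each of the 11 arrays, by group along the horizontal axis. Circle, square and triangle are replicates 1, 2 and 3, and the bar is the group mean. In all 5 panels the 2 HFD points lie above the 3 ND points. HFD+EV overlaps HFD in TMED2, ERGIC2, RAB14 and RAB10, and in TRAPPC4 it lies lower, at 5.80 to 6.07 against 6.61 and 6.90.

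The mean of the diet differences under vehicle and under EV, which uses the same HFD and ND arrays again, called 5 members higher and none lower, or 4.31% of member probe sets against 1.17% of all (0.861% called higher). At an unadjusted p under 0.05 there were 33 members, or 28.4%, against 24.7% of all. The 5 called members were the 4 genes above and RAB10, a GTPase of exocytic vesicles that in fat cells moves the glucose transporter GLUT4 to the surface. RAB10 read 6.65, 6.40 and 6.65 on ND, 7.03, 7.03 and 6.57 on ND+EV, 7.37 and 7.56 on HFD, and 7.03, 7.22 and 7.39 on HFD+EV. All HFD and HFD+EV arrays read at least as high as the highest normal-diet array, to 2 decimals. The mean diet difference of RAB10 was 0.62 ± 0.12 (limma adjusted p = 0.048), and that of HFD against ND alone was 0.90 ± 0.18 (limma adjusted p = 0.0503), just outside the threshold. The other mean diet differences were 0.65 for ERGIC2, 0.67 for TRAPPC4, 0.80 for RAB14 and 0.91 for TMED2.

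The calls sat close to the threshold. Counts of members called in HFD against ND were 0 when any 1 of ND 1, ND 3, HFD 1, HFD 2, HFD+EV 2, HFD+EV 3 or the 3 ND+EV arrays was left out, 14 probe sets (12 genes) without ND 2 and 13 (11 genes) without HFD+EV 1. The share of all probe sets called rose too, to 6.56% without ND 2 and 3.49% without HFD+EV 1. For TRAPPC4 the adjusted p without each of the 9 arrays that ended the call ranged from 0.0553 to 0.263, with differences between 1.01 and 1.31. For the mean diet effect the counts ranged from 0 to 18, with 18 (16 genes; 6.77% of all probe sets called) without HFD+EV 1 and 14 (12 genes; 6.08% of all) without ND 2.

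Other p24 genes were also high on the HFD arrays without passing the test. Of the 8 tested TMED genes, 6 had higher means in HFD than in ND (7 after cyclic loess or quantile normalization), with a median difference of 0.75. TMED10, the partner of TMED2 in p24 complexes, read 6.16, 6.52 and 6.68 on ND, 6.55, 7.01 and 7.10 on ND+EV, 7.29 and 7.97 on HFD, and 6.67, 7.31 and 7.61 on HFD+EV. HFD and ND did not overlap for TMED10, but HFD+EV overlapped all 3 other groups (HFD minus ND 1.17 ± 0.30, limma adjusted p = 0.0739). TMED7 differed by 0.84 (adjusted p = 0.0612) and TMED9 by 1.06 (adjusted p = 0.133), and TMED1 was lower by -0.32 (adjusted p = 0.247). TMED7 and TMED1 were picked after their values were seen. TMED5 and TMED6 differed by -0.06 and 0.01, and TMED5 turned to 0.06 after either scaling.

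ERGIC3, a relative of ERGIC2 in the same compartment, had 3 probe sets with identical values on every array; it counts once among genes and 3 times among probe sets. It read 7.13, 7.45 and 7.52 on ND and 7.72 and 7.73 on HFD, a difference of 0.36 ± 0.17 that did not pass (limma adjusted p = 0.232). After cyclic loess this difference was only 0.02. On HFD+EV, ERGIC3 read 7.14, 7.53 and 7.59, all below HFD.

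The 11 TRAPPC genes tested all had higher means in HFD than in ND as deposited, 10 after cyclic loess and 9 after quantile normalization, with a median difference of 0.30. TRAPPC1, another core subunit, read 4.70, 5.30 and 5.04 on ND, 4.95, 4.90 and 5.29 on ND+EV, 6.04 and 5.90 on HFD, and 5.07, 5.46 and 5.41 on HFD+EV. As with TRAPPC4, both HFD arrays of TRAPPC1 stood above the other 9 (HFD minus ND 0.96 ± 0.20, limma adjusted p = 0.057). TRAPPC2L differed by 1.02 (adjusted p = 0.231; chosen after its value was seen), 0.47 without ND 1 and 0.31 without ND 1 and 3. TRAPPC3, also of the core, differed by 0.15 (adjusted p = 0.648; -0.03 after either scaling), and TRAPPC9 and TRAPPC11 by 0.00 and 0.03. The ER-Golgi members as a whole were higher in 19 of 21 genes (19 after cyclic loess, 18 after quantile normalization, 17 without ND arrays 1 and 3).

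**Figure D2:**
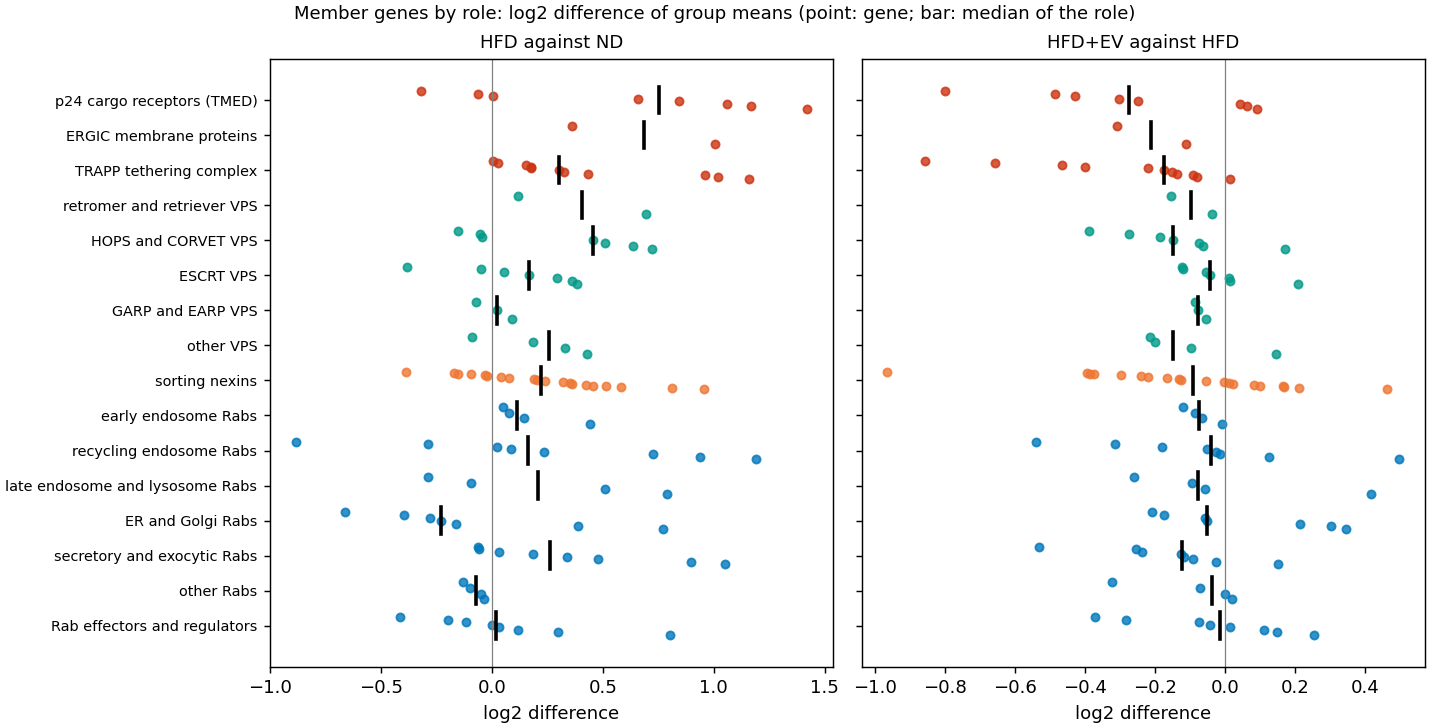
Log2 difference of group means for each tested member gene (points), by role, for HFD against ND (left) and HFD+EV against HFD (right); the bar is the median of the role. On the left, p24 and TRAPP genes lie mostly to the right of 0, with medians of 0.75 and 0.30, although 1 TRAPPC gene after cyclic loess and 2 after quantile normalization turn below 0. On the right their medians are -0.28 and -0.17. Both sides use the same HFD arrays with opposite sign, so they are not independent.

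Among VPS genes none passed in any comparison. In HFD against ND 16 of 23 had higher means (18 after cyclic loess or quantile normalization), with a median difference of 0.16. The 7 tested subunits of HOPS and CORVET divided: the HOPS subunit VPS39 and VPS11, VPS18 and VPS33A of the shared core differed by 0.64, 0.72, 0.51 and 0.46, and the HFD and ND arrays did not overlap for any of these 4. VPS16, also of the shared core, VPS41 of HOPS and VPS8 of CORVET differed by -0.16, -0.05 and -0.05, and after either scaling VPS41 and VPS8 turned above 0. Without ND 1 and 3, VPS33A differed by 0.74. VPS39 had the smallest adjusted p of the VPS genes, 0.0768 by limma. It read 5.55, 5.0 and 5.30 on ND, 5.47, 5.40 and 5.18 on ND+EV, 6.01 and 5.84 on HFD, and 5.70, 5.79 and 5.83 on HFD+EV, so that all 5 high fat arrays lay above all 6 normal-diet arrays.

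VPS26A, a retromer subunit, read 5.45, 5.18 and 5.04 on ND, 5.77, 5.97 and 5.88 on ND+EV, 6.06 and 5.77 on HFD, and 5.29, 5.98 and 6.01 on HFD+EV. ND lay below ND+EV and HFD, while HFD+EV 1 lay within the ND range (HFD minus ND 0.69 ± 0.22, limma adjusted p = 0.102). Its relative VPS26B differed by 0.12. Among ESCRT genes, the ATPase VPS4A, which takes the ESCRT coat apart, differed by 0.29 (adjusted p = 0.241). The ESCRT-II subunit VPS36 differed by 0.38 (adjusted p = 0.187; 0.24 without ND 1, 0.11 without ND 1 and 3), and the ESCRT-I subunits VPS28, VPS37A, VPS37B, VPS37C and VPS37D ranged from -0.38 to 0.36. The GARP subunits VPS51, VPS52 and VPS53, which act where endosome-derived vesicles meet the trans-Golgi network, lay between -0.07 and 0.09.

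No sorting nexin passed either. In HFD against ND 14 of 20 had higher means (13 after quantile normalization), with a median difference of 0.22. SNX1, which bends membranes into the tubules that leave endosomes, read 6.31, 7.01 and 6.33 on ND, 7.07, 6.95 and 6.61 on ND+EV, 7.31 and 7.70 on HFD, and 6.79, 7.27 and 7.30 on HFD+EV. HFD and ND did not overlap (difference 0.96 ± 0.25, limma adjusted p = 0.0773; 0.50 without ND 1 and 3). SNX5 and SNX6 are membrane-bending partners of SNX1. SNX6 differed by 0.58 (adjusted p = 0.0969; 0.39 without ND 1 and 3) and SNX5 by 0.08 (adjusted p = 0.765). SNX3, which brings retromer to endosomes, differed by 0.36 (adjusted p = 0.27).

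SNX24, a small sorting nexin, was measured by 2 probe sets that behaved differently. The probe set with the higher mean read 6.0, 6.0 and 5.31 on ND, 5.93, 5.82 and 5.96 on ND+EV, 6.58 and 6.59 on HFD, and 5.51, 5.51 and 5.83 on HFD+EV. HFD stood above all 9 other arrays (HFD minus ND 0.81 ± 0.20, limma adjusted p = 0.0712). Its other probe set had overlapping HFD and HFD+EV arrays (4.73 and 5.34 against 4.57, 4.68 and 5.14) and a difference of HFD from ND of 0.44 ± 0.25 (adjusted p = 0.306). SNX10, a sorting nexin of endosomes, had another order: 5.02, 5.33 and 4.86 on ND, 4.71, 5.33 and 4.94 on ND+EV, 5.37 and 5.25 on HFD, and 5.82, 5.87 and 5.63 on HFD+EV. HFD+EV lay above every other array, by 0.78 ± 0.17 over ND+EV (limma adjusted p = 0.425).

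**Figure D3:**
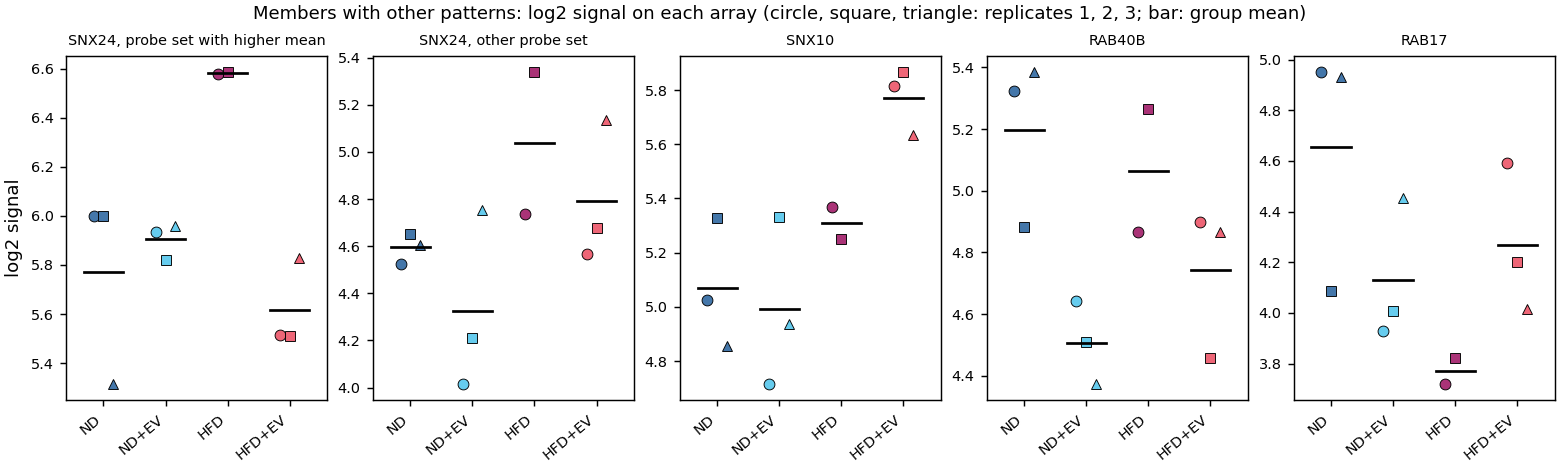
Log2 signal (vertical axis, a separate scale in each panel) of both SNX24 probe sets and of SNX10, RAB40B and RAB17 on each of the 11 arrays, by group. Symbols mark replicates 1, 2 and 3 and bars group means; none of these genes passed the test. The HFD points of the first SNX24 probe set stand at 6.58 and 6.59 and its HFD+EV points at 5.51 to 5.83, a gap that its other probe set does not show.

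In HFD against ND, Rab genes had the smallest median difference of the families compared, 0.03, against 0.36 for ER-Golgi, 0.16 for VPS and 0.22 for SNX genes. Of 43 tested RAB genes, 24 had higher means in HFD than in ND, also after cyclic loess or quantile normalization. RAB14 was the only RAB gene called in HFD against ND. Of 8 tested secretory and exocytic Rabs 6 had higher means, none of them called (2 at an unadjusted limma p under 0.05). Of 8 recycling endosome Rabs 6 had higher means and RAB17 and RAB4A lower ones. All 4 early endosome Rabs were higher, as were 2 of 4 in late endosomes and lysosomes. The roles were assigned by hand from general knowledge. RAB17, lower in HFD, was moved from the early to the recycling endosome group after the data were seen, so the early endosome count depends on that move. ER and Golgi Rabs had 5 of 7 lower and a median difference of -0.23. Among them, 2 higher and 2 lower had an unadjusted limma p under 0.05. The smallest p of this role was that of RAB2B, which was higher by 0.77 ± 0.21 (adjusted p = 0.0775; named after its value was seen). RAB1A, RAB2A and RAB18 were not among the members, so the role holds only part of the ER and Golgi Rabs. The 4 Rabs outside these roles were all lower. RAB8A, which carries vesicles to the surface and to cilia, read 5.79, 6.79 and 6.46 on ND, 6.73, 7.05 and 6.90 on ND+EV, 7.27 and 7.52 on HFD, and 7.03, 7.60 and 7.47 on HFD+EV. ND and HFD did not overlap (difference 1.05 ± 0.27, limma adjusted p = 0.0736; 0.61 without ND 1 and 3). RAB11A and RAB11B, the GTPases of slow recycling, differed by 0.73 and 0.94 (adjusted p = 0.264 and 0.136; RAB11B was chosen after its value was seen). RAB11A read 6.83 on ND 1 and between 8.23 and 8.69 on the other 10 arrays, so its ND mean turned on that array. Without ND 1 the differences of RAB11A and RAB11B were 0.22 and 0.58, and without ND 1 and 3 they were 0.23 and 0.57. RAB4A, of fast recycling, differed by -0.29 (adjusted p = 0.366) and the early endosome GTPase RAB5C by 0.44 (adjusted p = 0.368; 0.10 without ND 1, 0.17 without ND 1 and 3).

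In late endosomes, RAB7A, which drives maturation towards lysosomes, read 8.64, 8.96 and 9.02 on ND, 9.13, 9.07 and 9.14 on ND+EV, 9.23 and 9.53 on HFD, and 8.93, 9.27 and 9.16 on HFD+EV. HFD lay above ND and ND+EV (HFD minus ND 0.51 ± 0.16, limma adjusted p = 0.101). After cyclic loess the RAB7A difference of HFD from ND was only 0.07. RAB9A, which returns receptors from late endosomes to the Golgi, differed by -0.29 (adjusted p = 0.344). The Golgi GTPase RAB6A read 5.95, 5.99 and 5.96 on ND and 6.21 and 6.5 on HFD, 0.39 ± 0.13 apart (adjusted p = 0.112). RAB27A, which docks lysosome-related organelles and vesicles for release, differed by 0.03 (adjusted p = 0.917), and all 4 groups overlapped.

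Lower means in HFD were seen in RAB17, known from recycling endosomes of epithelia, and RAB6B, a Golgi GTPase best known from neurons. RAB17 read 4.95, 4.09 and 4.93 on ND, 3.93, 4.01 and 4.45 on ND+EV, 3.72 and 3.82 on HFD, and 4.59, 4.20 and 4.01 on HFD+EV. Both HFD arrays lay below the other 9 (HFD minus ND -0.89 ± 0.28, limma adjusted p = 0.0974). Without ND 2 this difference was -1.17 and passed (adjusted p = 0.0257), and without ND 1 and 3 it was -0.32. RAB6B differed by -0.66 ± 0.23 (adjusted p = 0.124), and by -0.41 without HFD 1. Of the Rab partners, RAB3GAP1, the catalytic subunit of a Rab3 GTPase-activating complex, differed by 0.80 (adjusted p = 0.06; chosen after its value was seen), and its partner RAB3GAP2 by 0.03. The RAB11 effectors RAB11FIP1, RAB11FIP2, RAB11FIP3 and RAB11FIP4 ranged from -0.42 to 0.30.

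**Figure D4:**
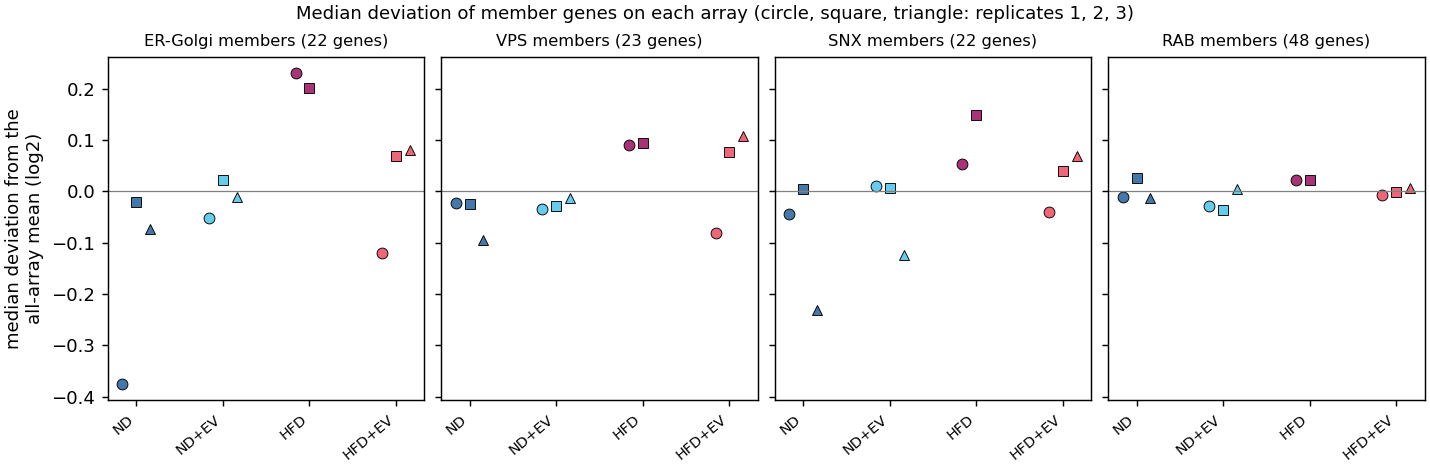
Median over member genes of the log2 deviation from each gene's mean over all 11 arrays (vertical axis), by array and group, for ER-Golgi, VPS, SNX and RAB genes; circle, square and triangle are replicates 1, 2 and 3. The ER-Golgi medians of the HFD arrays are 0.23 and 0.20 and those of ND run from -0.38 to -0.02. The RAB medians all lie between -0.04 and 0.03.

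In EV-injected hearts the median diet difference of the 107 member genes was 0.07, against -0.01 over all probe sets and 0.02 over all genes with a symbol. No member passed (limma, with 0% of all probe sets passing as well). At an unadjusted p under 0.05 there were 3 members, or 2.59%, against 7.36% of all: SNX10, VPS39 and ERGIC2. VPS39 differed by 0.42 and ERGIC2 by 0.30 in HFD+EV against ND+EV. TRAPPC5, a core TRAPP subunit, was lower by -0.65 ± 0.31 (limma adjusted p = 0.687). HFD against ND and HFD+EV against ND+EV share no arrays. Of the 107 member genes, 78 (72.9%) had the same sign in these comparisons (r = 0.447, rho = 0.496 across genes, which are not independent), against 66.7% of all probe sets (r = 0.397).

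**Figure D5:**
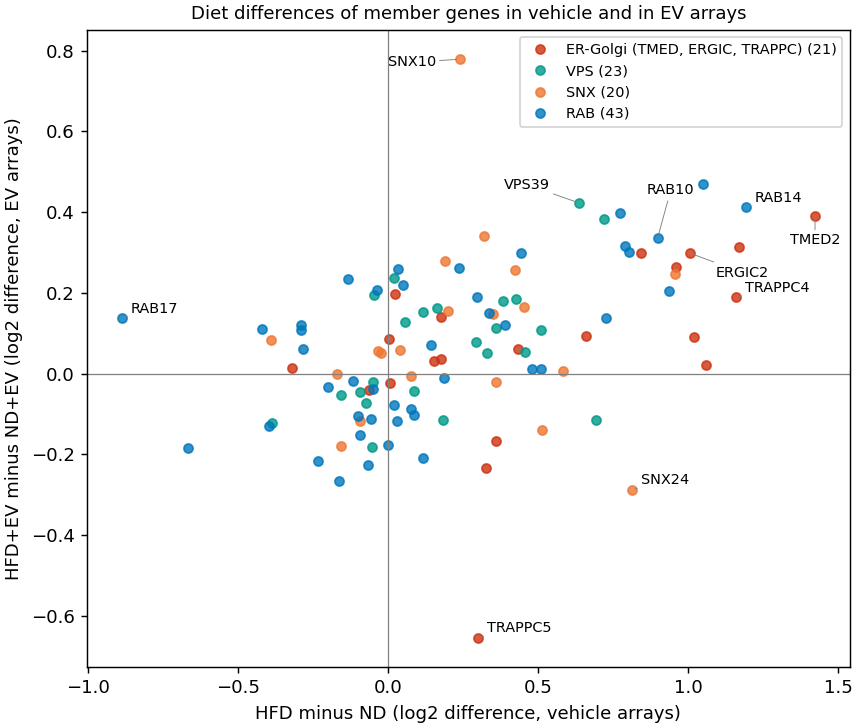
Each tested member gene by its log2 difference HFD minus ND (horizontal axis, vehicle arrays) and HFD+EV minus ND+EV (vertical axis, EV arrays), coloured by family. TMED2, RAB14, ERGIC2 and TRAPPC4 are on the right at 1.01 to 1.42 and reach 0.19 to 0.41 on the vertical axis. SNX10 is at 0.24 on the horizontal and 0.78 on the vertical axis.

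After EV injection under the normal diet no member passed (limma; 0% of all). At an unadjusted p under 0.05 there were 9 members, 7.76% against 8.51% of all probe sets. The named differences of ND+EV from ND were 0.60 ± 0.13 for ERGIC2, 0.75 ± 0.19 for RAB14, 0.65 ± 0.20 for VPS26A and 0.73 ± 0.24 for TMED2, with limma adjusted p of 0.539 to 0.548. For these 4 genes all ND+EV arrays lay above all ND arrays. The genes named here were ranked by p in this same comparison, so such a separation comes partly with the choice. The share of all probe sets without overlap is not given for this comparison. RAB40B, a Rab whose SOCS box binds ubiquitin ligase components, was lower with EV. It read 5.32, 4.88 and 5.39 on ND, 4.64, 4.51 and 4.37 on ND+EV, 4.87 and 5.26 on HFD, and 4.90, 4.46 and 4.87 on HFD+EV. ND+EV lay below ND without overlap (-0.69 ± 0.18, limma adjusted p = 0.539). Without ND 1 and 3, the differences of RAB14, TMED2 and RAB40B were 0.24, 0.34 and -0.37.

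Under the high fat diet most members had lower means with EV than with vehicle, and none passed (limma; 0% of all). This comparison uses the same HFD arrays as HFD against ND, with the opposite sign. A high reading on those arrays raises the one difference and lowers the other by arithmetic. The 2 comparisons are therefore not independent, and whether EV reversed a diet difference was not tested by setting them side by side. Of 107 genes, 78 were lower in HFD+EV than in HFD (73 after cyclic loess or quantile normalization), as were 50.4% of all probe sets, and 46% of all genes with a symbol were higher. At an unadjusted p under 0.05 there were 7 members, or 6.03%, against 5.54% of all. The median difference was -0.09, against 0.00 over all probe sets and -0.02 over all genes with a symbol. Without HFD+EV 1 the median of the members was -0.04 with 64 genes lower. By family, 17 of 21 ER-Golgi genes, 18 of 23 VPS genes (17 after either scaling), 12 of 20 SNX genes and 31 of 43 RAB genes (27 after either scaling) were lower. The HFD and HFD+EV arrays did not overlap for 22 member probe sets that were lower (19 genes; 19%, against 11% of all) and 8 that were higher (6.9%, against 12.2%). At a mean signal of 6.5 or more, 2 of 20 members were higher, against 35.9% of all probe sets.

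The named members here were TRAPPC4 (-0.86 ± 0.16, limma adjusted p = 0.427), SNX24 (-0.97 ± 0.20, adjusted p = 0.552), TRAPPC1 (-0.66 ± 0.20, adjusted p = 0.716) and TMED9 (-0.80 ± 0.38, adjusted p = 0.904). For the first 3, all HFD+EV arrays lay below both HFD arrays. TMED9, a p24 protein, read 5.98 and 5.82 on HFD and 4.32, 4.98 and 6.02 on HFD+EV, so that 1 HFD+EV array was as high as HFD. Its difference was -0.41 without HFD+EV 1 and -1.26 without HFD+EV 3. RAB9A was higher on HFD+EV (6.54, 6.65 and 6.66) than on HFD (6.21 and 6.19), by 0.42 ± 0.18 (adjusted p = 0.895).

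The difference of the EV effects between diets, (HFD+EV minus HFD) minus (ND+EV minus ND), also called no member (limma; 0% of all). At an unadjusted p under 0.05 there were 18 member probe sets (15 genes), or 15.5%, against 8.42% of all. The named genes were TRAPPC4 (-0.97), SNX24 (-1.10), ERGIC2 (-0.71), TMED2 (-1.03) and RAB17 (1.02), each with a limma adjusted p of 0.572. Without ND 1 and 3, TMED2 was at -0.65 and RAB17 at 0.45. No member passed for the mean EV effect (0% of all; 9 members at an unadjusted p under 0.05, 7.76% against 5.42% of all), nor in the F-test over the 4 groups (0% of all), in which ERGIC2 had the smallest adjusted p, 0.114, and 23 members (19.8%, against 17% of all) had an unadjusted p under 0.05. RAB14 passed that F-test without ND 2 (adjusted p = 0.0386).

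Genes outside the members that work in the same steps were counted from 8 lists, which were not matched for signal. For reference, 54.5% of all genes with a symbol were higher in HFD than in ND. Among probe sets with a mean signal of 6.5 or more it was 75.8%. In HFD against ND, 12 of 13 COPII coat genes (12 after cyclic loess or quantile normalization), 11 of 12 COPI genes (9 and 8) and 16 of 18 other ER-Golgi cargo receptors and tethers (14 and 14) had higher means. Of these, SAR1B, the GTPase that starts COPII budding (1.09 ± 0.20), and GORASP2, a Golgi stacking protein (1.21 ± 0.22), passed (limma adjusted p = 0.0471 each), and no COPI gene did. COPA, the COPI alpha subunit, differed by 0.80 (adjusted p = 0.0746), and its mean diet effect of 0.72 passed (adjusted p = 0.048). These calls were as fragile as those of the members. With no filter on low signal, cyclic loess, quantile normalization or a trended and robust fit, no probe set at all passed in either comparison. All 6 genes of Rab escort, prenylation and recycling (5 after either scaling) were higher without a call, GDI2, which recycles Rabs from membranes, by 0.81 (adjusted p = 0.0911).

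Higher means in HFD than in ND, with no call, were found for 11 of 13 further ESCRT genes (11 after cyclic loess or quantile normalization), 13 of 15 clathrin and adaptor genes (12 and 11), 5 of 6 exocyst genes (4 and 4) and 14 of 21 endosomal fusion genes (13 and 13). STAM, an ESCRT-0 subunit, differed by 0.69 (limma adjusted p = 0.06). AP1G1, of the adaptor that sorts at the trans-Golgi network, differed by 0.60 (adjusted p = 0.0687) and passed for the mean diet effect (0.48, adjusted p = 0.0487). That call too was absent under the settings in which no probe set passed. In HFD+EV against HFD, all 13 COPII genes (13 after either scaling), 10 of 12 COPI genes (9 after either) and 11 of 13 ESCRT genes (10 after cyclic loess, 9 after quantile normalization) had lower means, with no call. Of all probe sets 50.4% were lower. The HFD arrays are again shared with HFD against ND, so these counts are not independent of those above.

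Markers of 11 cell types were measured beside the members, and none of the 65 tested passed in HFD against ND or in HFD+EV against HFD (limma; 17 and 4 at an unadjusted p under 0.05). All 9 measured of 10 listed fibroblast markers had higher means in HFD than in ND (8 after cyclic loess or quantile normalization), with a median difference of 0.60. Their mean log2 level per array ran from 7.34 to 8.26 on ND, 8.10 to 8.19 on ND+EV, 8.30 to 8.82 on HFD and 7.93 to 8.63 on HFD+EV. The 7 measured cardiomyocyte markers ran from 10.86 to 11.19 on ND, 11.18 to 11.29 on ND+EV, 11.28 to 11.46 on HFD and 11.17 to 11.44 on HFD+EV. Of these markers, 5 were higher in HFD than in ND as deposited, 6 after quantile normalization and 2 after cyclic loess. Atrial muscle markers (7 of 7 measured) ran from 4.84 to 5.47 on ND, 5.15 to 5.38 on ND+EV, 5.50 to 6.07 on HFD and 5.08 to 5.12 on HFD+EV.

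Of the other lists, 6 of 6 endothelial and 6 of 8 smooth muscle and pericyte markers had higher means in HFD than in ND, and 3 of each after either scaling. Macrophage markers were higher in 5 of 8 (median 0.10), as after either scaling, and T and NK cell markers in 3 of 10 (6 after either scaling). Both B cell markers (median -0.49), both red cell markers (-0.40), all 3 adipocyte markers (-0.13) and 2 of 3 neutrophil markers (-0.38) had lower means, also after either scaling. In HFD+EV against HFD, all 9 fibroblast markers had lower means (6 after cyclic loess, 7 after quantile normalization; median -0.17), as had 6 of 7 atrial markers (5 after either; median -0.39). Macrophage markers had higher means in 6 of 8, also after either scaling, with a median of 0.29. The part of cell composition in the member differences was not tested.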

How the data were processed

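Ischemic left ventricle of 11 samples in 4 groups was measured on an Affymetrix whole-transcript array from 50 ng of total RNA, per the labels' protocols. The values deposited by the authors are normalized log2 signal for each probe set. Transcriptome Analysis Console is the tool in the submitters' processing notes. Neither the normalization method nor the tool's version nor the genome build is given in the sources used here, and no coordinates appear. The number of arrays limits the precision.

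Tests used limma 3.58.1 (R 4.3.3; lmFit, then eBayes) with 1 mean per group over all 11 arrays, 7 contrasts and an F-test, all two-sided. Probe sets whose mean signal fell in the lowest 25% were dropped first. P-values were adjusted by Benjamini-Hochberg over 20668 probe sets, with a threshold of 0.05. Where a gene had several probe sets, the brightest stands for it. Repeated value sets were kept in the fit: the 124 member probe sets held 119 distinct ones. Of the members, 123 matched a RefSeq gene table (Sscrofa11.1) by gene ID. No member sequences were used here.

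Named genes are members past the threshold, up to 4 per direction and contrast by unadjusted p at a fold of at least 1.5, a list of core members, genes whose probe sets point in opposite directions, and the smallest p of each pathway list. Further members, such as TMED7, VPS18, SNX6 and RAB3GAP1, were picked after their values were seen. Members and lists were chosen with earlier results of these data known. The script was tested on simulated data built from the means and spreads of 20668 probe sets. For HFD against ND it recovered 64.2% of 67 probe sets given a 2-fold change and 14.9% of 67 given a 1.5-fold change. The simulated noise was independent between probe sets, with no shift of whole arrays. These rates therefore check the script and do not give the power in the real data. Alternatives were other filters, scalings, weights, blocking, the compared groups alone and leaving out arrays.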

Additional observations from a re-analysis of the deposited data

How the results depend on the processing

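No member was called in either EV comparison, HFD+EV against ND+EV, the mean EV effect or the difference of the EV effects under any alternative tried. The 4 members called in HFD against ND (0.735% of all probe sets called) became 0 with no filter on low signal, with cyclic loess, quantile normalization, a trended and robust fit, array weights, the compared groups alone, or without ND 1 and 3. They became 7 (6 genes; 1.55% of all) with 50% of probe sets left out and 9 (9 genes; 3.38% of all) with 1 probe set per gene. Leaving out 1 array gave 0 to 14. The 5 members of the mean diet effect (1.17% of all) became 0 with no filter, cyclic loess, quantile normalization, a trended and robust fit, or without ND 1 and 3. They became 13 (11 genes; 3.36% of all) with 50% of probe sets left out, 13 (13 genes; 4.19% of all) with 1 probe set per gene, and 17 (15 genes; 8.06% of all) with array weights. Leaving out 1 array gave 0 to 18. The F-test count ran from 0 to 1. The labels do not say whether replicate numbers pair the samples. Of 15 same-numbered pairs of arrays, 5 had correlated deviations over 0.1 (range -0.10 to 0.34). Other pairs ranged from -0.34 to 0.19, and those over 0.1 were at 0.102, 0.103, 0.11, 0.133 and 0.194. Whether arrays of the same number belong together was not tested. With the replicate number as a block, 12 member probe sets (11 genes; 4.54% of all) were called in HFD against ND and 16 (14 genes; 4.77% of all) for the mean diet effect. The causes were not tested. Calls whose adjusted p lies this near the threshold cannot be ranked by it.

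Of 79 differences given for single member probe sets, 61 kept their sign under every alternative tried and 18, of 0.26 or less in size, did not. In HFD against ND, cyclic loess and quantile normalization turned RAB3GAP2 to -0.086 and -0.10, TMED5 to 0.059 and 0.059, TRAPPC3 to -0.026 and -0.031, VPS41 to 0.019 and 0.015, and VPS8 to 0.065 and 0.068. Quantile normalization turned TRAPPC11 to -0.0022, and the replicate block RAB3GAP2 to -0.085. Without ND 1 and 3, TRAPPC3 was -0.074, SNX10 -0.018 and VPS16 0.0084. With 1 array left out, values ran from -0.052 to 0.11 for RAB27A, -0.25 to 0.31 for RAB3GAP2, -0.043 to 0.18 for SNX5, -0.14 to 0.028 for TMED5, -0.072 to 0.098 for TMED6, -0.082 to 0.13 for TRAPPC11, -0.023 to 0.27 for TRAPPC3, -0.14 to 0.14 for TRAPPC9, -0.091 to 0.33 for VPS26B, -0.19 to 0.096 for VPS41 and -0.11 to 0.016 for VPS8. In ND+EV against ND, the first SNX18 probe set was -0.054 and -0.049 after the scalings and ran from -0.10 to 0.10 with 1 array left out, that of SNX24 ran from -0.095 to 0.25 and was -0.093 without ND 1 and 3, and the second of VPS13B ran from -0.36 to 0.16. Without ND 1 and 3 the second probe sets of RAB4A and SNX18 were -0.017 and 0.017.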

Other observations

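There were 8 member genes with more than 1 probe set. ERGIC3 (3 probe sets), TRAPPC1, RAB2B and RAB9B (2 each) had identical values in all of them. In ND+EV against ND, the probe sets of RAB4A, SNX18, SNX24 and VPS13B pointed in opposite directions, at -0.28 and 0.10, 0.01 and -0.26, 0.13 and -0.27, and 0.20 and -0.10, and none passed (limma). VPS13B encodes a lipid transfer protein of the Golgi, and SNX18 is a sorting nexin of endocytic membranes. In HFD against ND only SNX18 of the 8 had opposite signs, at 0.04 and -0.14.

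UBAP1, an ESCRT-I subunit outside the members, had the smallest p of its list in HFD+EV against HFD with a difference of -2.91 ± 0.82 (limma adjusted p = 0.653).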
